A study of Mus musculus with 3 samples.

Results

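The Sgms1 locus is the stretch of mouse chromosome 19 from 32150000 to 32500000 (build mm9), 350 kb that hold Sgms1, and its members are the H3K27ac and H3K4me1 regions that overlap it. There were 137 such H3K27ac regions of 93413 in the genome and 81 such H3K4me1 regions of 155027. Acetylation of histone H3 at lysine 27 (H3K27ac) marks promoters and enhancers in use, and single methylation at lysine 4 (H3K4me1) marks enhancers, used or not, and the flanks of promoters. Each mark was profiled by chromatin immunoprecipitation sequencing in 1 library, made from hematopoietic stem cells isolated from bone marrow as SP-KSL-CD150+ cells of C57BL/6 mice aged 24 months, and an input library of the same cells was not analysed here. Between 50000 and 100000 primary cells were used, per the series' design text. The labels name no treatment and no mutation, and put all libraries under biological replicate 1 as technical replicates. With 1 library a mark nothing could be checked in a replicate, and p-values were not computed. The deposited files are lists of peaks, here called regions, each with a summit and a fold, the peak caller's ratio of reads at the summit to the local background. The window was chosen by the acetylated length of the H3K27ac domain it holds, so the number and length of its H3K27ac regions are a description and not a finding. That it holds Sgms1 rests on the rule that set its limits, because no mm9 annotation was used here, and for the same reason the sorted population was not checked against its marker genes.

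Sgms1 encodes sphingomyelin synthase 1, a membrane enzyme of the Golgi that moves phosphocholine from phosphatidylcholine onto ceramide and so makes sphingomyelin and diacylglycerol. Sphingomyelin is a main lipid of the outer leaflet of the plasma membrane, and ceramide is a lipid that can promote cell death, so the enzyme stands between the pools of both. Enhancers in which many acetylated regions lie close together, within or beside a gene, are often found at genes of high activity in the cell type where they occur. In the RefSeq gene table (assembly GRCm38.p6) the closest protein-coding gene on one side of Sgms1 is Asah2, which encodes neutral ceramidase, an enzyme that splits ceramide. On the other side the long non-coding RNA gene 2700046G09Rik overlaps Sgms1, and the next protein-coding gene is Minpp1, which encodes an inositol polyphosphate phosphatase. Regions near the edges of the window may thus lie at other genes than Sgms1, which was not tested.

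RefSeq lists 4 start sites of Sgms1, all on the minus strand, and the 250 bases before each are shown because they differ in their content of CG dinucleotides, printed in capitals. Positions are those of GRCm38.p6 and are not comparable with the mm9 positions of the regions, so the start sites were not placed among the regions.
Sgms1 start 1, chr19:32388513-32388762: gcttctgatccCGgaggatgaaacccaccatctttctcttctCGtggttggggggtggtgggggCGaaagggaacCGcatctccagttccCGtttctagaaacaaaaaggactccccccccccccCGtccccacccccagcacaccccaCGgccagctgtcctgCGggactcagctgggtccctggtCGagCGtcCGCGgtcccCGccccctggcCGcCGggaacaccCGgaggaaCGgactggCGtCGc
Sgms1 start 2, chr19:32388050-32388299: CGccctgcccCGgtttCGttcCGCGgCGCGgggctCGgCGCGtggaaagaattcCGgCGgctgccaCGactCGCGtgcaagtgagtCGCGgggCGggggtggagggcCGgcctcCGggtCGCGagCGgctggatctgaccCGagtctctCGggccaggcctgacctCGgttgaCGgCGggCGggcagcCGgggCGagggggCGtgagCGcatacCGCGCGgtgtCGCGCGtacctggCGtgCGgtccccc
Sgms1 start 3, chr19:32349317-32349566: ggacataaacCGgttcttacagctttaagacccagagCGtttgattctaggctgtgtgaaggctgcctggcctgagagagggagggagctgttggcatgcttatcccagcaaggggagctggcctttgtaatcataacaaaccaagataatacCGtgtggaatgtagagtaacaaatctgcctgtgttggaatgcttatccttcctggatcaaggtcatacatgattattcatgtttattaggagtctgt
Sgms1 start 4, chr19:32211014-32211263: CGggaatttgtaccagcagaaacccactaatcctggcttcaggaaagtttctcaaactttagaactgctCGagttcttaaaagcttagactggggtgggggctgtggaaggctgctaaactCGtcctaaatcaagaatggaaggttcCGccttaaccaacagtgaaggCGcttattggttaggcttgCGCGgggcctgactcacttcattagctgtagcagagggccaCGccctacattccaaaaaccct
The first 2 windows are rich in C and G, with 19 and 41 CG dinucleotides in 250 bases, against a median of 6 (quartiles 2 and 16) over 32851 such windows in the table. Start 2 stood near the top, with 284 windows holding more. Starts 3 and 4 held 3 and 8. The motif AGATAA, which GATA factors bind, was found on either strand in 1 of the 4 windows, that of start 3, and in 9.99% of all windows. The RUNX motif TGTGGT and the ETS motif GGAAGT were found in none of the 4, and in 14.0% and 19.7% of all windows. No match says only that these letters are not in the window.

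The acetylated regions of the locus stood apart from their neighbours on the chromosome. The nearest H3K27ac region on the left lay 60.1 kb before the first member and the nearest on the right 63.2 kb after the last. The window cuts through a stretch of H3K4me1 at its left edge, where the first member (32149842 to 32152242, 5.48-fold) crosses the limit and the closest region left outside lay 6.51 kb from it (32142510 to 32143486, 5.56-fold). On the right the first H3K4me1 region outside lay 34.7 kb beyond the limit, at 3.76-fold. H3K27ac covered 115 kb of the window (32.7%) and H3K4me1 223 kb (63.7%), and 34.1% carried neither mark. Over 7545 other windows of the same length laid end to end along the chromosomes, the median cover was 0.828% for H3K27ac and 3.27% for H3K4me1. A single one of these windows had more H3K27ac, and a single one had more H3K4me1. These windows were laid at fixed positions and can cut a long domain, whereas the locus window was chosen by the domain it holds. Its place near the top thus follows in part from that choice and is no finding.

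**Figure D1:**
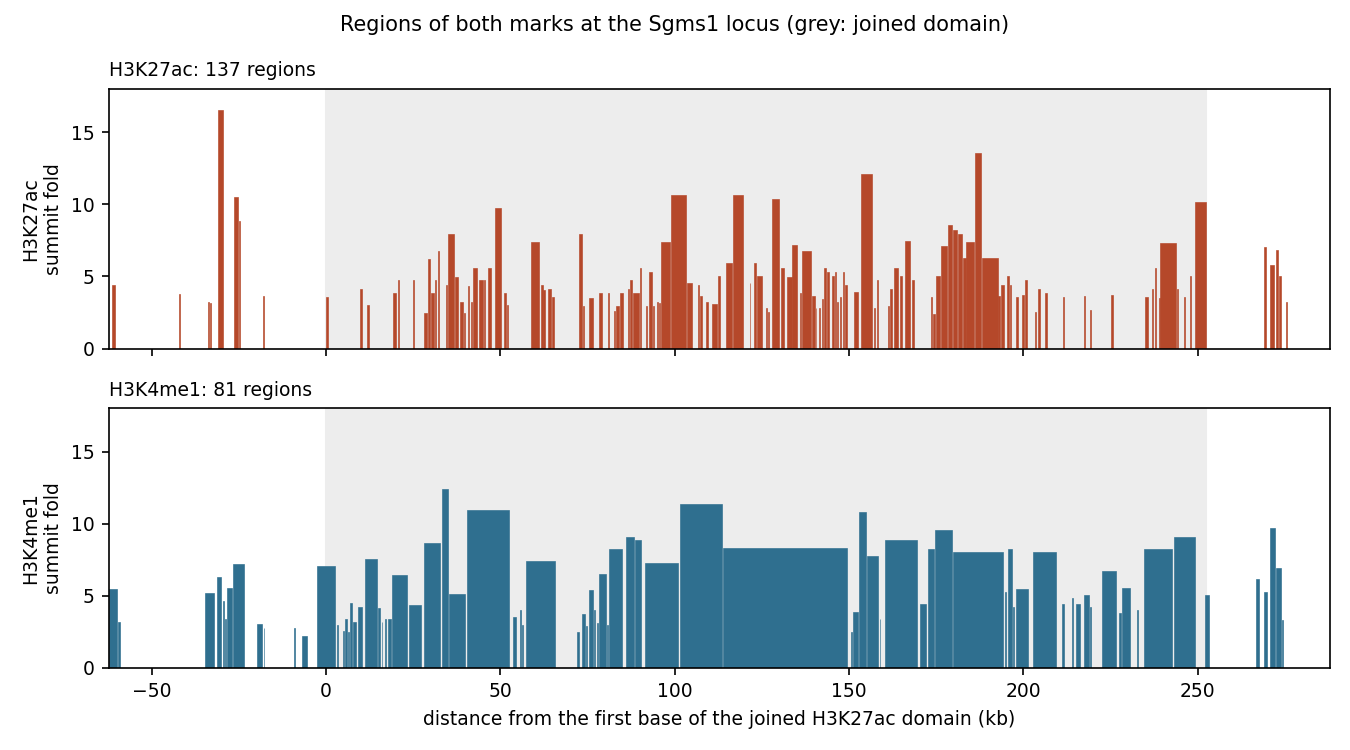
Each bar is a region of H3K27ac (upper panel) or H3K4me1 (lower panel) at the Sgms1 locus, drawn at its true width, with the fold of its summit as height. The horizontal axis gives the distance in kb from the first base of the joined H3K27ac domain, shaded grey; the 16.6-fold H3K27ac region stands to the left of the domain, and the broadest H3K4me1 region, of 35.6 kb, stands in its middle.

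When neighbouring H3K27ac regions were joined into domains (the gap allowed is given with the processing), 124 of the 137 fell into 1 domain from 32212182 to 32464426. This domain was the second of 30221 in acetylated length, the value that chose the locus. The other 13 fell into 3 short domains beside it. On the left were 1 region of 831 bp and a group of 7 from 32170037 to 32194269. On the right was a group of 5 from 32481064 to 32487733. The limits of the domain followed the gap allowed. With gaps of up to 5 kb the longest domain was 138.9 kb (32284832 to 32423692) with 82 regions, and with gaps of up to 20 kb, which was tried once the data were known, all 137 regions formed 1 domain of 336.8 kb.

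Acetylation at the locus was broad and closely spaced, and its single regions reached high folds about as often as elsewhere. The 137 H3K27ac regions had a median fold of 4.43 (quartiles 3.55 and 5.61, range 2.40 to 16.6), against 3.86 (quartiles 3.25 and 5.32, range 1.21 to 43.4) for all other H3K27ac regions. The summits held a median of 15 reads at the locus, against 13 elsewhere. This small difference of medians turned round in lists cut by the −log10 q of the summit, the peak caller's measure of confidence, to a ratio of 0.992 where only summits with −log10 q from 5 upwards were kept and 0.867 with 10 upwards, against 1.15 over all regions. A fold of 6 or more was reached by 29 of 137 members (21.2%, exact 95% binomial interval 14.7 to 29.0%), near the 18.7% of all H3K27ac regions. A fold of 10 or more was reached by 8 members (5.84%, interval 2.55 to 11.2%), where all regions gave 7.77%. Members were wider, with a median of 505 bp against 355 bp elsewhere. A width of 2 kb or more was reached by 10 of them (7.30%, interval 3.56 to 13.0%), where the interval holds the 4.04% of all. Width adds to the acetylated length that chose the window, so the wider members are a description and not a finding. Neighbouring H3K27ac summits lay a median of 1560 bp apart at the locus (quartiles 980 and 2489 bp), against 5308 bp genome-wide (quartiles 1590 and 18973 bp). Close spacing follows in part from choosing a window that holds a long acetylated domain. Other long domains were nearer to the locus. The median spacing was 1504 bp in the locus domain, against a median of 1928.5 bp (quartiles 1641 and 2382 bp) in the other 301 of the 302 domains of largest acetylated length. The binomial intervals reflect counting error alone. The reads carry no molecular identifiers and may be copies of the same molecule, and neighbouring regions share their source.

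H3K4me1 regions of the locus were stronger and much wider than over the whole genome. Their median fold was 5.05 (quartiles 3.37 and 7.40, range 2.24 to 12.4), against 4.11 (quartiles 3.16 and 5.69, range 1.31 to 15.4) for other H3K4me1 regions. The ratio of the medians was 1.23, and 1.21 and 1.19 in the stricter lists. In fold the locus was near the middle of other long domains. The median H3K4me1 fold was 4.95 in the locus domain. The other 301 of the 302 domains of largest acetylated length had a median of 4.87, and 142 exceeded the locus domain. Over the genome, H3K4me1 regions that met H3K27ac had medians of 5.69-fold and 1396 bp, and the window was chosen by its acetylated length. A fold of 6 or more was reached by 30 of 81 members (37.0%, interval 26.6 to 48.5%), against 20.7% of all H3K4me1 regions, and 10-fold or more by 4 (4.94%, interval 1.36 to 12.2%), against 1.12%. The median width was 1236 bp (quartiles 418 and 3082 bp), against 687 bp elsewhere (quartiles 360 and 1359 bp). Of the 81 members, 11 spanned 5 kb or more (13.6%, interval 6.98 to 23.0%), against 2.04% of all, and 4 spanned 10 kb or more (4.94%), against 0.295%. The local background behind these folds was raised above 1.05 times the genome-wide level at 51 of 137 H3K27ac summits (37.2%, interval 29.1 to 45.9%), against 26.2% of all. It was raised at 35 of 81 H3K4me1 summits (43.2%, interval 32.2 to 54.7%), where the interval holds the 36.8% of all. Without regions of raised background the ratio of median fold, locus over other regions, was 1.14 for H3K27ac and 1.21 for H3K4me1.

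**Figure D2:**
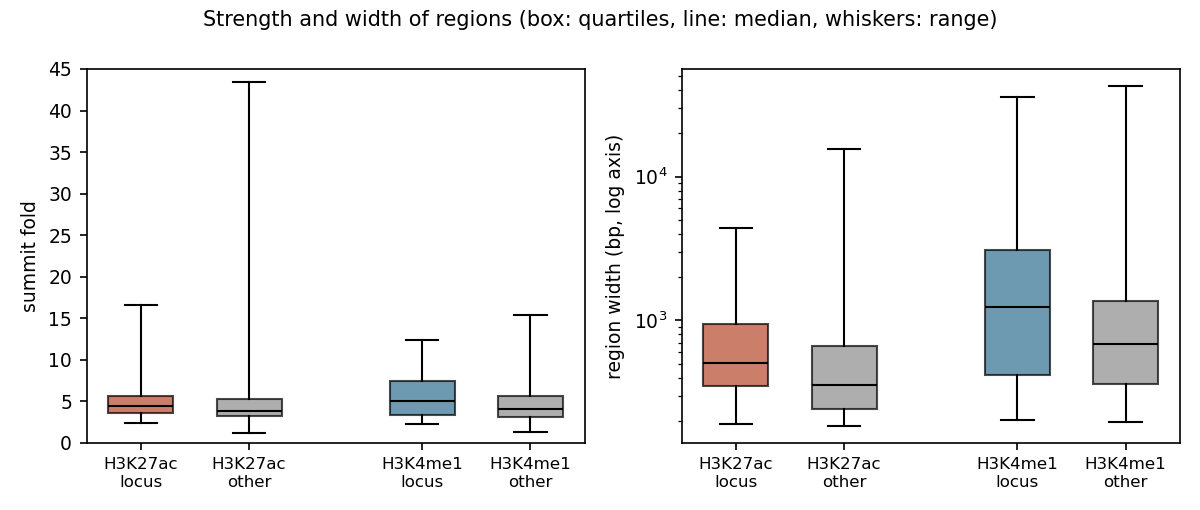
Boxes give the quartiles, the line the median and the whiskers the full range of summit fold (left panel, linear axis) and region width (right panel, log axis) for regions of the Sgms1 locus beside all other regions of the same mark. The H3K27ac boxes of fold overlap over most of their length (medians 4.43 and 3.86), whereas the H3K4me1 boxes of width are apart in the median (1236 and 687 bp) and the upper quartile (3082 and 1359 bp).

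The strongest acetylated region of the window lay outside the joined domain. It spanned 32181119 to 32182772 and had a summit of 16.6-fold from 59 reads (interval of the fold 12.7 to 21.3, from an exact 95% Poisson interval of the reads). It ranked 1965th in fold among all H3K27ac regions. Inside the domain the strongest was 32398281 to 32400115, at 13.6-fold (interval 9.99 to 18.1, 45 reads). The third was 32365526 to 32368824, at 12.1-fold (interval 8.71 to 16.3, 40 reads), and the intervals of all these overlap, so their order is not fixed by these counts.

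The next members lay close together in strength. The regions 32311133 to 32315544 and 32328756 to 32331812 both had 10.6-fold summits of 35 reads (interval 7.50 to 14.7). Region 32185774 to 32186843, whose summit lay 4.08 kb from the strongest one, had 10.5-fold. Region 32340081 to 32341967 had 10.3-fold, and 32461333 to 32464426, the last region of the domain, had 10.2-fold. Just under 10-fold came 32260510 to 32262493 with 9.75-fold, followed by 32187141 to 32187645 with 8.86-fold, and their intervals (6.76 to 13.6 and 6.03 to 12.6) take in 10. Of the 10 regions named so far, 3 thus lay in a cluster of 6.53 kb left of the domain and 7 in the domain itself. The first region of the domain, 32212182 to 32212638, was weak in comparison at 3.55-fold.

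The widest acetylated regions were in part also among the strongest, but the 16.6-fold region was not one of them. The regions 32311133 to 32315544 and 32400347 to 32404758 each spanned 4412 bp, at 10.6-fold and 6.27-fold. Region 32451425 to 32455780 spanned 4356 bp at 7.32-fold, where the local background was 1.59 times that of the genome. Regions 32365526 to 32368824 and 32461333 to 32464426, described above, spanned 3299 and 3094 bp, at 12.1-fold and 10.2-fold. The first pair shared place 297 of 93413 in width.

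A single H3K4me1 region held the middle of the locus. It ran from 32326043 to 32361616 and spanned 35.6 kb, which made it the third widest of 155027, in a genome where 4 spanned 30 kb or more. Its summit had 8.28-fold from 48 reads (interval 6.15 to 10.9) and lay 2.35 kb from its left end, where the local background was 1.31 times that of the genome. It contained 25 H3K27ac regions, all of them wholly, with a median of 5.02-fold (range 2.55 to 10.6), and 59.0% of its length was acetylated. Acetylation inside it was thus called as many regions while H3K4me1 was called as 1 unbroken stretch. The libraries differed in genome-wide background, 2.38 reads for H3K27ac and 3.75 for H3K4me1. The part of this difference in the breaks was not tested.

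The other broad H3K4me1 regions were filled by acetylation to differing degrees. The second widest, 32392094 to 32406414 (14.3 kb, 8.05-fold), met 8 H3K27ac regions, of which 6 reached 6-fold or more, and 87.7% of it was acetylated. The regions 32313546 to 32325832 (12.3 kb) and 32252523 to 32264679 (12.2 kb) met 7 and 9, with 55.9% and 58.3% acetylated. Region 32303666 to 32313204 (9.54 kb, 7.26-fold) met 7, with 69.2% acetylated. The 11 H3K4me1 regions of 5 kb or more each met a median of 6 H3K27ac regions. Over all such regions of the genome the median was 3, and a higher number here follows from the choice of an acetylated window.

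The strongest H3K4me1 summit was not in the broad regions. It belonged to 32245537 to 32247058, a region of 1522 bp with 12.4-fold from 58 reads (interval 9.49 to 16.0), the 94th in fold of all H3K4me1 regions. After it came 2 of the broad ones, 32313546 to 32325832 at 11.4-fold and 32252523 to 32264679 at 11.0-fold. Region 32364898 to 32367135 followed at 10.8-fold and met the 12.1-fold acetylated region described above. The fifth, 32482776 to 32484178 at 9.68-fold, lay right of the domain. The intervals of the first (9.49 to 16.0) and the fifth (7.14 to 12.8) overlap, so these 5 are not ordered beyond counting error.

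Almost all acetylated regions of the locus met H3K4me1. Of the 137 H3K27ac members, 133 (97.1%, interval 92.7 to 99.2%) met H3K4me1, counted from 1 shared bp upwards, against 71.7% of all H3K27ac regions. Most met 1 (126 regions) and 7 met 2. Of the acetylated length of the window 93.4% lay inside H3K4me1, against 65.9% genome-wide, and of the H3K4me1 length 48.0% was acetylated, against 21.2%, a difference that the choice of an acetylated window fixes. Since H3K4me1 covered 63.7% of the window, many of these meetings would occur by position alone, which the shares do not correct for. High shares were found in other long domains too. In the locus domain 99.2% of H3K27ac regions met H3K4me1, and 94.5% of the acetylated length lay inside it. The other 301 of the 302 domains of largest acetylated length had medians of 90% and 84.5%. The locus domain was exceeded in 33 and in 8 of them. Without the H3K27ac regions of raised local background, which was tried once the data were known, 84 of 86 members met H3K4me1 (97.7%, against 69.98% of all). When H3K4me1 regions of raised background were removed as well, which takes out the 35.6 kb region, 44 of 86 did (51.2%, against 50.2% of all). The difference from the genome was no longer seen, in a setting that removes H3K4me1 partners by construction.

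The 4 acetylated members without H3K4me1 differed in strength. Region 32284832 to 32285563 had 7.98-fold (interval 5.31 to 11.6, 26 reads) and was the only one of them inside the domain. The other 3 were weaker, at 3.77-fold (32170037 to 32170421), 3.66-fold (32194004 to 32194269) and 3.23-fold (32487414 to 32487733). The 7.98-fold region lay in the gap between H3K4me1 regions 32284022 to 32284626 and 32285597 to 32286377, with H3K4me1 present 1 kb to either side of its summit. H3K4me1 at exactly 1 kb to the left and to the right but not at the summit, here called a valley, was found at 3 of 137 summits (2.19%, interval 0.454 to 6.27%), against 5.85% of all. The rule reads single positions, and strong summits in a break of H3K4me1 that it does not count are described below. The other 2 valley members were weak, at 3.85-fold (32300239 to 32302031) and 2.40-fold (32386170 to 32386848).

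Strong acetylation at the locus mostly sat on top of H3K4me1. Of the 137 summits, 128 (93.4%, interval 87.9 to 97.0%) lay inside an H3K4me1 region, against 58.2% of all H3K27ac summits. The share was 91.2% below 4-fold (52 of 57 members, against 51.5% of all). It was 98.0% from 4-fold to under 6-fold (50 of 51, against 75.1%) and 95.2% from 6-fold to under 10-fold (20 of 21, against 66.6%). At 10-fold or more 6 of 8 summits lay inside (75%, interval 34.9 to 96.8%), against 25.6% of the 7255 such summits of the genome. The limit of 10-fold was chosen with results known, and at 8-fold or more, tried once the data were known, 10 of 12 lay inside, against 34.2%. This placement was shared by other long domains. In the other 301 of the 302 domains of largest acetylated length, 405 of 666 summits of 10-fold or more lay inside H3K4me1 (60.8%, interval 57.0 to 64.5%), a share within the interval of the locus. Without the H3K27ac regions of raised background 6 of 6 strong summits lay inside, but without raised background in either mark 1 of 6 did, against 16.6% of all. The latter setting removes H3K4me1 partners by construction, among them the regions of 35.6 kb and 14.3 kb that hold strong summits.

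**Figure D3:**
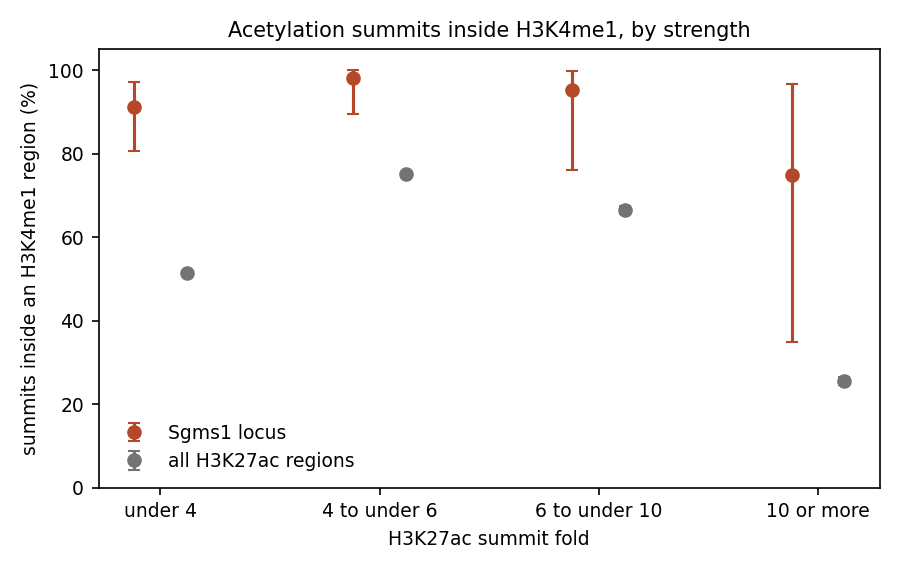
Points give the percentage of H3K27ac summits that lay inside an H3K4me1 region, by class of summit fold, for the Sgms1 locus (red) and all H3K27ac regions (grey), with exact 95% binomial intervals. The share at the locus stays between 75% and 98.0%, while the share over all regions drops to 25.6% at 10-fold or more.

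The 2 strong summits outside H3K4me1 stood at opposite ends. The 16.6-fold summit lay in a break of 707 bp in H3K4me1, 512 bp from the region on its left and 196 bp from that on its right. The 10.2-fold summit, which ends the domain, lay in a break of 2599 bp, 2468 bp from the region on its left and 132 bp from that on its right. This break was the third longest stretch of the domain without H3K4me1. The 5 strong summits between these ends, with the 10.5-fold summit 4.08 kb from the strongest, all lay inside H3K4me1 regions of 7.21-fold to 8.28-fold. Their distance to the closer edge of H3K4me1 ranged from 164 bp at the 12.1-fold summit to 14598 bp at the 10.3-fold summit.

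**Figure D4:**
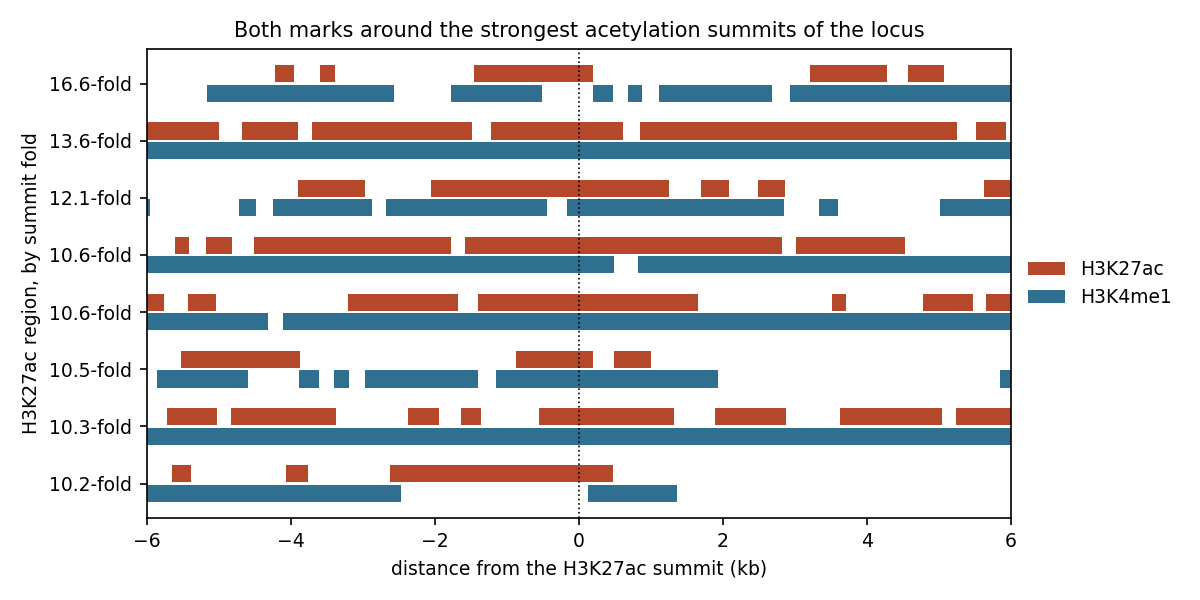
Each row is centred on the summit of an H3K27ac region of 10-fold or more, sorted by fold from 16.6 at the top to 10.2 at the bottom, with H3K27ac regions in red and H3K4me1 regions in blue and the distance from the summit in kb on the horizontal axis. The top and bottom rows have no H3K4me1 at the summit, where the dotted line stands, and the 6 rows between them do.

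H3K4me1 covered far more than acetylation in the first bins of the domain and in a stretch before its right end, but not at the right end itself. From 32240000 to 32409999, 170 kb in the middle, H3K27ac covered 52.4% and H3K4me1 84.5%, with 99 acetylation summits. In the 30 kb before it, from 32210000, H3K27ac covered 9.90% with 6 summits, and H3K4me1 still 73.6%. From 32420000 to 32449999 H3K27ac covered 8.35%, also with 6 summits, and H3K4me1 51.9%. Beyond it the order changed: H3K27ac covered 54.9% and H3K4me1 96.0% of the next 10 kb, from 32450000, and H3K27ac 32.8% and H3K4me1 27.3% of the 10 kb from 32460000, which hold the end of the domain. These limits were set with the values in view. In bins of 10 kb along the window, H3K27ac cover reached 82.2% from 32390000 and 75.5% from 32310000, and H3K4me1 covered 3 bins in a row from 32330000 to 32359999 fully (100%). Across the 35 bins, which share libraries and are not independent, the covers of both marks went together (Pearson r 0.805, Spearman rho 0.845).

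**Figure D5:**
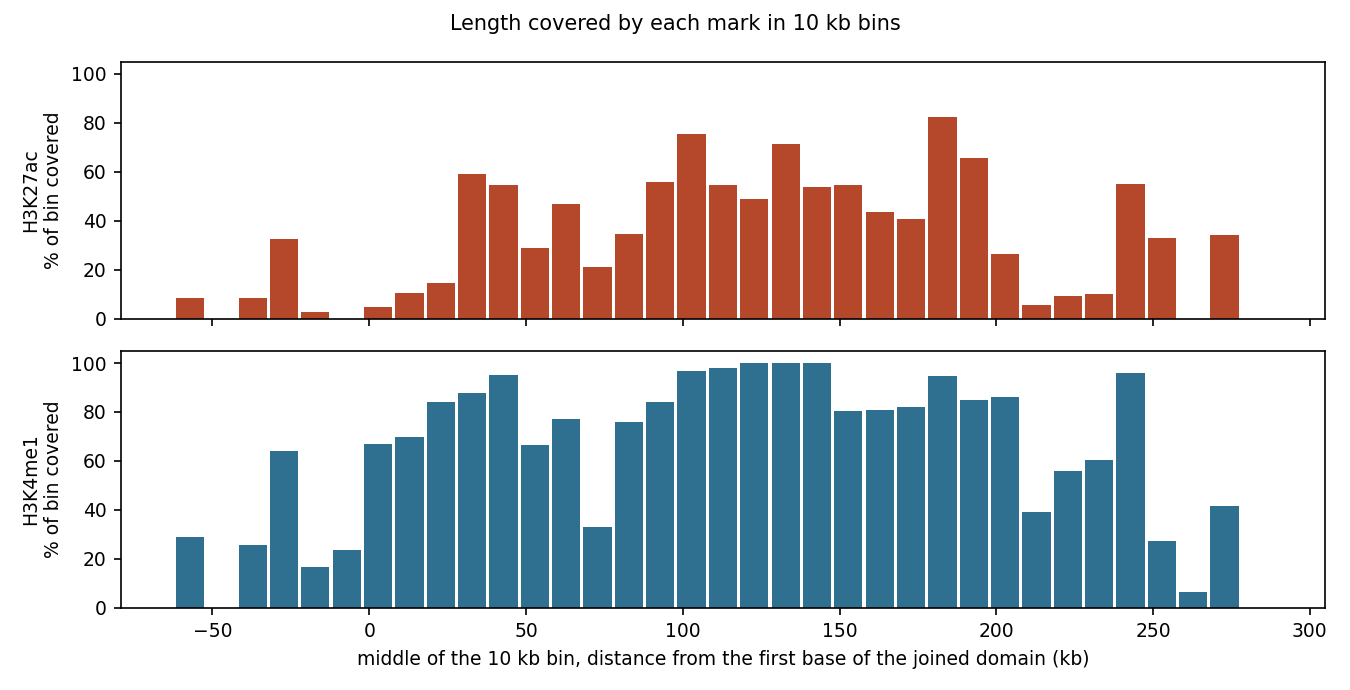
Bars give the percentage of each 10 kb bin of the window covered by H3K27ac (upper panel) and H3K4me1 (lower panel), against the distance in kb of the bin's middle from the first base of the joined domain. H3K27ac is highest at 82.2% and falls under 15% in the outer bins of the domain's left end, where H3K4me1 stays at 66.9 to 84.1%.

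The longest stretches of the domain without H3K27ac were of 2 kinds. The first, 32212639 to 32222035 (9.40 kb), lay just inside the left end and was covered by H3K4me1 over 59.0% of its length, in 8 regions. The second, 32437958 to 32447076 (9.12 kb), had 46.3% in H3K4me1, in 5 regions. The third, 32277620 to 32284831 (7.21 kb), had 9.83%, and 6.30 kb of it, from 32277724 to 32284021, made up the longest stretch of the domain without either mark. In the window as a whole the longest stretches without either mark lay outside the domain, at 16.8 kb (32153240 to 32170036) and 13.6 kb (32465326 to 32478918).

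The H3K4me1 regions without acetylation were narrow and weak. Of the 81 members 44 met H3K27ac (54.3%, interval 42.9 to 65.4%), against 33.6% of all H3K4me1 regions, and 37 did not. The window was chosen by its acetylated length, so a share above that of the genome follows from the choice and is no finding, in the width classes below as well. The 37 had a median of 3.37-fold (range 2.24 to 6.13) and 444 bp and covered 22.9 kb together. The 44 had a median of 7.24-fold (range 3.74 to 12.4) and 2800 bp and covered 200.3 kb. The same order held over the genome, at 3.58-fold and 493 bp for H3K4me1 alone, and 5.69-fold and 1396 bp with H3K27ac. Under 500 bp 3 of 24 members met H3K27ac, where 11.2% of all such regions did, from 500 bp to under 2 kb 15 of 30 did (50%, against 38.2%), and from 2 to under 5 kb 15 of 16 (93.8%, against 75.8%). The narrowest class of the locus was thus near the genome-wide share. Of the 28 unacetylated H3K4me1 regions in the domain, 10 lay in the 30 kb from 32210000 to 32239999. A further 13 lay in the 170 kb from 32240000 to 32409999, and 5 in the 30 kb from 32420000 to 32449999. The strongest of all 37 were 32478919 to 32479573 (6.13-fold), 32440562 to 32442757 and 32183680 to 32185247 (5.56-fold each), 32406761 to 32407144 (5.27-fold) and 32425990 to 32426505 (4.84-fold).

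Beside the domains next to it in rank, the domain of the Sgms1 locus had the broadest single H3K4me1 region and the lowest top of acetylation. It spanned 252.2 kb, against 234.8 kb for the first-ranked domain (chromosome 6 from 133983590 to 134218398) and 192.1 kb for the third (chromosome 17 from 84245180 to 84437300). The widest H3K4me1 region was 35.6 kb at the locus, 23.2 kb in the first and 15.2 kb in the third. The highest acetylation summit was 13.6-fold in the locus domain, 26.3-fold in the first and 21.0-fold in the third, while the median folds were 4.43, 4.40 and 4.43. The 16.6-fold region of the window lay outside the locus domain and is not counted here. The acetylated length was split into 124 regions at the locus, 130 in the first and 59 in the third, and summits lay a median of 1504, 1493 and 1824 bp apart. H3K4me1 covered 79.0% of the span at the locus, 88.2% in the first and 59.6% in the third, and 96.0%, 96.9% and 81.4% of acetylation summits lay inside it. The locus and the first domain were thus alike in spacing and in placement, and the third had fewer, longer acetylated regions.

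Among the 302 domains of largest acetylated length, the highest acetylation summit of the locus domain was slightly below the middle. It was exceeded in 175 of the 301 others, whose median was 14.5-fold (upper quartile 18). The widest H3K4me1 region was exceeded in 2 of the 301, whose median was 9.92 kb, and the share of summits inside H3K4me1 in 9, whose median was 81.3%. The highest summit and the widest region were not corrected for the size of a domain. The locus domain spanned 252.2 kb and held 64 H3K4me1 regions, against medians of 89.0 kb and 24 in the others. H3K4me1 covered a larger part of the span in 33 of the 301 (median 59.7%). A raised local background was found at 36.3% of the locus domain's H3K27ac summits, against a median of 29.6% in the others, and its part in these values was not tested. No gene is named for these other domains because no mm9 annotation was used here.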

How the data were processed

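Peak lists of 1 H3K27ac and 1 H3K4me1 library were analysed. Per the submitters' processing notes, Bowtie2 2.0.6, MACS2 2.0.10.20131216 and build mm9 were used; the control, options and duplicate handling are not given in the sources used here. Per the labels' protocols, chromatin was fragmented to 200 to 500 bp. In the deposited lists the fold is the ratio of summit reads to local background, and the −log10 p and −log10 q values of the summit are the authors'. Positions are printed counting from 1. The members, lists and limits were chosen with earlier results of these data known.

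Whole reads at a summit and its background were recovered from fold and −log10 p, taking fold as (reads + 1)/(background + 1) and p as a Poisson tail. They gave the deposited value within 0.001 at all 93413 H3K27ac and all 155027 H3K4me1 summits. The weakest summits held 8 and 10 reads, and the genome-wide background was 2.38 and 3.75 reads. Intervals are exact Clopper-Pearson (shares) and exact Poisson (fold, with the background held fixed), both 95%. Regions met when they shared at least 1 bp. Domains joined H3K27ac regions over gaps of up to 12.5 kb.

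Regions named were the 10 H3K27ac of highest fold, the 5 widest H3K27ac, the 5 strongest and 5 widest H3K4me1, the 3 longest stretches without H3K27ac in the domain, the members without the other mark (5 strongest where over 10) and the domain's end regions. Other regions were named after their values were seen. Genes of sphingolipid metabolism were not compared, as no mm9 annotation was used here. Functions on regions were tested on simulated regions. The recovery of reads was checked by computing fold and −log10 p from the recovered values and recovering them again, so no reads were simulated. Alternatives changed the overlap rule, the q limit, the window, the joining of regions, the number of H3K4me1 regions, the domain gap and the ranking. Calculations ran in Python 3.11.15 with scipy 1.17.1, pandas 2.3.3 and numpy 2.4.6, and figures were drawn with matplotlib 3.10.9.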

Additional observations from a re-analysis of the deposited data

How the results depend on the processing

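The settings on local background, on 8-fold, on 20 kb gaps and all those for summits of 10-fold or more were chosen once the data were known. Of 57 alternative values, 27 stayed within the counting interval (shares), within 1.5 times (numbers) or in the third digit (other values), 28 moved and 2 turned round. The ratio of median H3K27ac fold, locus over other regions (1.15 as reported), turned round to 0.992 when summits with −log10 q from 5 upwards were kept and to 0.867 from 10 upwards, and was 1.14 without raised local background, in both lists or in H3K27ac alone. The ratio for H3K4me1 (1.23) was 1.21 and 1.19 at these limits, 1.20 within the domain, 1.18 with equal numbers of regions and 1.21 without raised background. H3K27ac members numbered 72 and 30 at q limits of 5 and 10 and 47 when joined over 1 kb, against 137. H3K4me1 members numbered 40 at 10 and 24 when joined, against 81. H3K27ac covered 23.8% and 16.1% of the window at the 2 limits and 42.0% of the domain, against 32.7%. H3K4me1 covered 60.7% and 56.6% at the limits, 79.0% of the domain and 60.4% with equal numbers, against 63.7%. Of H3K4me1 members, 75% met H3K27ac when both lists were joined over 1 kb, against 54.3%. Without raised background in either list, 51.2% of H3K27ac members met H3K4me1, 48.8% of their summits lay inside it and 16.7% of those of 10-fold or more, against 97.1%, 93.4% and 75%; this setting removes H3K4me1 partners by construction. The last share was 100% (6 of 6) when H3K27ac alone was so limited. The domain ranked 1 with gaps of up to 5 kb, 3 with 20 kb, 4 at the q limit of 5 and 5 by fold times width, against 2. Stricter limits and joining leave fewer regions by construction; for the remaining changes the cause was not tested. The comparison of sphingolipid genes was not made. No paired analysis was possible because only 1 library was made per mark. A summit under 8 H3K27ac or 10 H3K4me1 reads was not called in these lists, which limits what the unacetylated H3K4me1 regions show.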
